A study of Mus musculus with 18 samples.

Results

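Layer 6b-type nuclei of the prefrontal cortex (PFC) were 261 of 35450 glutamatergic nuclei (0.736%) in 9 libraries, out of 66602 PFC nuclei that passed the quality filter and 138000 in the whole series. A nucleus was taken when it held at least 200 genes and at most 10% mitochondrial UMIs (unique molecular identifiers, which count single captured RNA molecules). It also had to hold at least 2 UMIs of Cplx3, Nxph4 and Ctgf together, at least 1 UMI of the glutamate transporter gene Slc17a7, at most 1 UMI of Gad1 and Gad2, and at most 1 UMI of 7 glial and vascular genes (Mog, Mag, Pdgfra, Aqp4, Gja1, Csf1r and Flt1). These 13 genes chose the nuclei, so their levels are given as a description and no test was run on them.

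Layer 6b is the thin, deepest sheet of the cerebral cortex, lying on the white matter. In rodents it holds the surviving neurons of the subplate, which are among the earliest-born neurons of the cortex, receive the first thalamic input and guide ingrowing axons before most of them die. Adult layer 6b neurons that carry Cplx3 and Ctgf are largely excitatory, are known to respond to orexin, and send axons to cortical layers and higher-order thalamus. Ctgf encodes a secreted matricellular protein of the CCN family, Cplx3 a complexin that binds the SNARE complex at the presynaptic terminal, and Nxph4 a neurexophilin, a secreted glycoprotein of the family that binds alpha-neurexins.

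The PFC came from male Kun Ming mice, an outbred stock, aged 8 weeks. There were 3 germ-free (GF) mice raised in isolators without microbes, 3 specific pathogen-free (SPF) mice with a normal microbiota, and 3 colonized germ-free (CGF) mice, which were born germ-free and then shared cages with SPF mice to acquire a microbiota. The study asked what the gut microbiota changes in single nuclei of the hippocampus and PFC. Each mouse gave 1 PFC library of droplet-captured nuclei, so a group is 3 mice, and every value below was summed over the nuclei of a mouse.

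A library held 20336250 to 26949210 UMIs in SPF mice, 22213863 to 26151503 in CGF mice and 59126586 to 71463928 in GF mice. The median layer 6b-type nucleus held 3940 to 4761 UMIs in SPF, 3916 to 5686 in CGF and 8790 to 10924 in GF mice, against 3845 to 4077, 3070 to 4207 and 8857 to 9740 in the other glutamatergic nuclei of the same libraries. Mitochondrial genes took 1.08 to 2.05% of the UMIs of layer 6b-type nuclei in SPF, 1.01 to 2.63% in CGF and 0.163 to 0.590% in GF mice. The GF libraries of PFC thus stood apart in depth and content, and germ-free housing and library cannot be told apart in any direct comparison of GF mice. Of the 36 pairs of libraries, each shared 7 to 26 cell barcodes, and 0 of these were layer 6b-type in both libraries. No doublet caller was run.

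SPF mice 30, 31 and 32 gave 30, 28 and 27 layer 6b-type nuclei. CGF mice 17, 18 and 19 gave 32, 25 and 25, and GF mice 5, 6 and 7 gave 30, 18 and 46. Together these nuclei held 1703420 UMIs. Before the gates on other cell types, 400 nuclei passed the marker threshold, and 34 of these failed through Gad1 and Gad2.

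Ctgf carried most of the selection. It gave 849 of the 1076 marker UMIs (78.9%), was seen in 244 of the 261 nuclei (93.5%) and reached 15 UMIs in a single nucleus. Cplx3 gave 183 UMIs in 116 nuclei (44.4%) with at most 5 per nucleus, and Nxph4 gave 44 UMIs in 37 nuclei (14.2%) with at most 2. Levels of Ctgf in CPM (the UMIs of a gene scaled to the same total of UMIs in every population and library) were 520, 480 and 721 in SPF mice 30, 31 and 32, 547, 669 and 635 in CGF mice 17, 18 and 19, and 405, 323 and 450 in GF mice 5, 6 and 7. The GF values were the 3 lowest, but a nucleus enters at 2 marker UMIs whatever its depth and GF nuclei were deeper, so the rule itself bears on this order. Cplx3 stood at 127 ± 74.8 CPM and Nxph4 at 26.3 ± 11.6 CPM (mean ± SD, n = 9 libraries).

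Outside the chosen nuclei the markers were sparse. The other glutamatergic nuclei held 2.56 CPM of Ctgf, 1.35 CPM of Cplx3 and 0.185 CPM of Nxph4, which the threshold of 2 UMIs in part fixes. A Ctgf UMI was found in 1.53% of them, a Cplx3 UMI in 0.676% and an Nxph4 UMI in 0.134%. Oligodendrocyte-type nuclei (869 nuclei with at least 2 UMIs of Mog and Mag, median 933 to 2241 UMIs per library), taken as a type that should lack these genes, had such a UMI in 1.38%, 0.690% and 0.115%. These shares cannot be compared as levels between the 2 populations. The other glutamatergic nuclei were deeper (median 3070 to 9740 UMIs per library), and the rule holds them to at most 1 marker UMI. The 261 nuclei, 0.747% of glutamatergic UMIs, held 61.3% of all glutamatergic UMIs of Ctgf, 43.5% of Cplx3 and 48.4% of Nxph4.

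UMIs of all 3 markers were seldom seen in the same nucleus. Cplx3 and Nxph4 gave few UMIs per nucleus, so a missing UMI need not mean a missing transcript. Whether the nuclei differ in the markers beyond this was not tested. Ctgf alone chose 121 nuclei, Ctgf with Cplx3 88, Ctgf with Nxph4 22 and all 3 genes 13. The remaining nuclei had no Ctgf UMI: 15 were chosen by Cplx3 alone and 2 by Nxph4 alone. Nuclei with all 3 markers held 570 CPM of Svil, 2501 CPM of Inpp4b and 840 CPM of Olfr111, against 412, 1290 and 346 CPM over all 261 nuclei. The 15 nuclei with Cplx3 alone held 14.2 CPM of Svil, 128 CPM of Inpp4b and 0 UMIs of Olfr111, with 171 CPM of the upper-layer gene Cux2 against 40.5 CPM over all. Of the 15 genes of the layer 6b list outside the rule, 12 were lower in them than over all 261 nuclei, with 0 UMIs of Moxd1, Drd1, Nxph3 and Col8a1. Nr4a2 (56.9 against 36.4 CPM), Gabra5 (128 against 123 CPM) and Trh, with a single UMI, were not. These few nuclei thus went against the label in most of the list, and the 2 nuclei with Nxph4 alone held 0 UMIs of Svil and 617.5 CPM of Cux2.

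Some of these genes differed across the threshold in the same way. The 822 glutamatergic nuclei with exactly 1 marker UMI, just outside, held 36.9 CPM of Svil, 153 CPM of Inpp4b and 156 CPM of Cux2. The 95 nuclei with exactly 2 marker UMIs, just inside, held 208 CPM of Svil, 523.5 CPM of Inpp4b and 83.7 CPM of Cux2. The 166 nuclei with 3 or more held 511, 1667 and 19.3 CPM. Other genes of the layer 6b list did not follow this order. From 1 to 2 marker UMIs, Nr4a2 went from 31.4 to 26.7 CPM, Unc5c from 320 to 215.5 CPM and Pls3 from 79.3 to 78.3 CPM, and from 2 to 3 or more Col8a1 went from 14.2 to 13.1 CPM.

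Identity was examined with genes the rule had not used. Layer 6b-type nuclei were compared with the 35189 other glutamatergic nuclei of the same mice by edgeR's quasi-likelihood test with the mouse as a block. Of 13240 genes tested, 738 were higher (5.57%) and 1532 lower (11.6%) at a Benjamini-Hochberg adjusted p of 0.05. The split depended on scaling: size factors of DESeq2 gave 944 higher and 1183 lower, and DESeq2 itself gave 794 and 890. With every nucleus thinned to 2000 UMIs, which left GF mouse 5 with 0 layer 6b-type nuclei, 98 were higher and 1378 lower, and the median over all genes was -0.80 against -0.12.

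Of 14 further subplate and layer 6b genes tested, 13 were higher in layer 6b-type nuclei and 0 lower, with a median log2 fold change of 2.91 against -0.12 over all genes tested. Some of its genes are also transcribed in oligodendrocytes: the summed level of the list was 1889 to 4177 CPM in layer 6b-type nuclei, 545 to 943 CPM in other glutamatergic nuclei and 941 to 2409 CPM in oligodendrocyte-type nuclei. The steepest genes were Clic5, a chloride intracellular channel protein, and Svil, which encodes supervillin, an actin-binding membrane-associated protein. Inpp4b, a phosphoinositide 4-phosphatase, was the most abundant in UMIs.

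Svil stood at 182, 480 and 331 CPM in SPF mice 30, 31 and 32, at 138, 339 and 361 CPM in CGF mice 17, 18 and 19, and at 438, 526 and 588 CPM in GF mice 5, 6 and 7. Its highest value in other glutamatergic nuclei was 13.2 CPM, so the populations were separate in all 9 libraries. The log2 fold change was 5.13 (SE 0.13, adjusted p = 1.03e-118), and a Svil UMI was found in 53.6% of layer 6b-type and 4.13% of other glutamatergic nuclei.

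Inpp4b measured 554, 1483 and 1005 CPM in SPF mice, 652, 1483 and 1278 CPM in CGF mice and 1696, 1715 and 1368 CPM in GF mice, in the same order of mice. Other glutamatergic nuclei did not exceed 146 CPM. The mean was 1248 ± 424 CPM (SD, n = 9) and the log2 fold change 3.46 (SE 0.10).

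Clic5 gave 27.0, 68.6 and 59.5 CPM in SPF, 22.1, 84.7 and 44.1 CPM in CGF and 69.9, 52.1 and 38.9 CPM in GF mice, with at most 1.81 CPM in other glutamatergic nuclei (log2 fold change 5.39, SE 0.27). Layer 6b-type nuclei held 25.2% of all glutamatergic UMIs of Clic5 and 24.4% of Svil. SPF mouse 30 and CGF mouse 17 were the lowest of their groups for Svil, Inpp4b and Clic5 alike. In these 2 libraries 15 of 30 and 16 of 32 layer 6b-type nuclei held exactly 2 marker UMIs. The counts were 12 of 28 and 8 of 27 in SPF mice 31 and 32, and 5 of 25 and 9 of 25 in CGF mice 18 and 19. In GF mice 5, 6 and 7 they were 6 of 30, 6 of 18 and 18 of 46. The part of this mix in the levels and in the group contrasts of these genes was not tested.

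**Figure D1:**
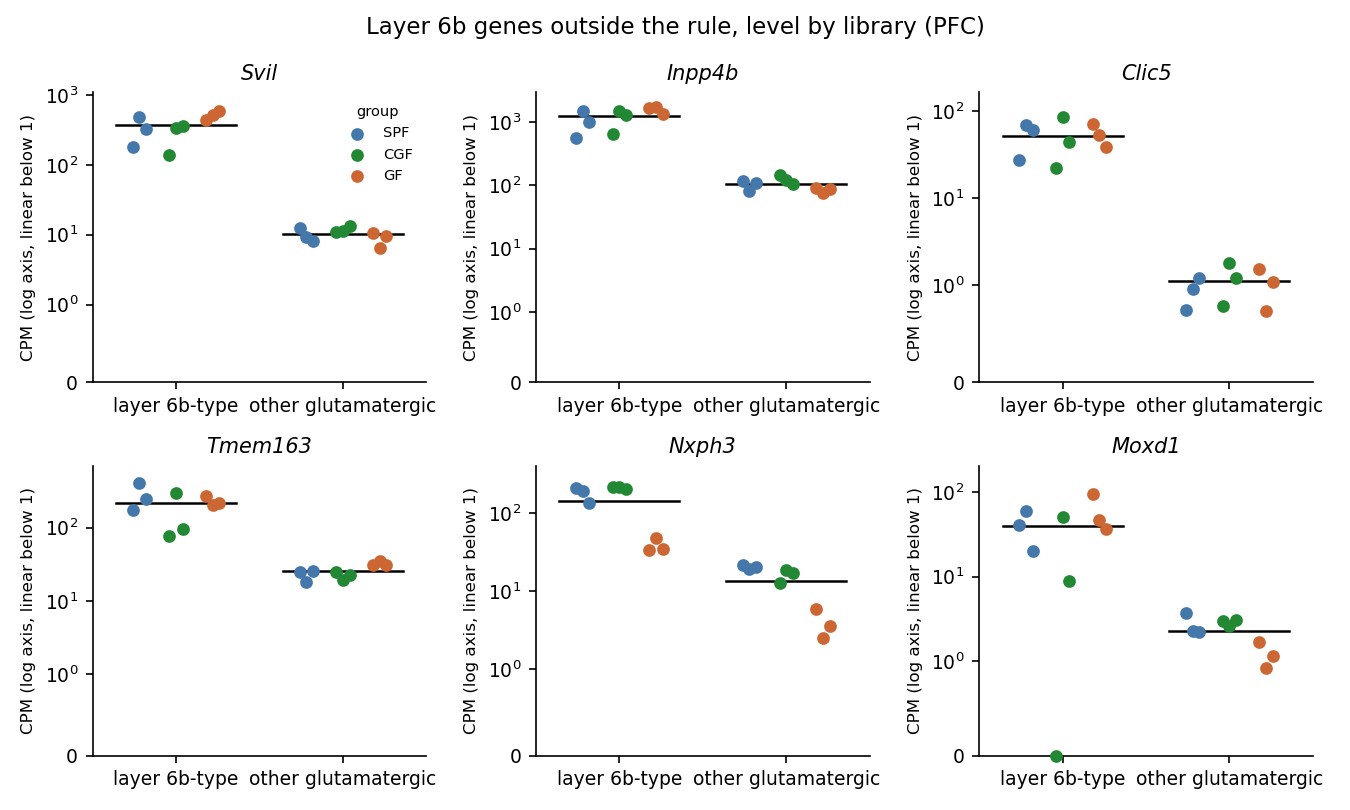
CPM of 6 layer 6b genes that the rule did not use, in layer 6b-type nuclei (left of each panel) and other glutamatergic nuclei (right). Each point is 1 of the 9 PFC libraries, coloured by group, the black bar is the mean, and the axis is logarithmic above 1 and linear below. The points of the populations do not overlap for Svil, Inpp4b, Clic5, Tmem163 and Nxph3, while Moxd1 was at 0 in CGF mouse 17.

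Moxd1, a monooxygenase-like protein, had a log2 fold change of 4.22 (SE 0.30) and was higher in 8 of 9 libraries, with 0 UMIs in CGF mouse 17. Nxph3, a neurexophilin known from layer 6b, had 3.28 (SE 0.18), Tmem163, a vesicular zinc transporter, 2.91 (SE 0.14) and Lpar1, a receptor of lysophosphatidic acid, 2.91 (SE 0.17). Serpini1, which encodes the protease inhibitor neuroserpin, had 1.67, Gabra5, a GABA-A receptor subunit, 1.08, and the actin-bundling gene Pls3 0.74. In the 6 SPF and CGF libraries alone Pls3 had an adjusted p of 0.1. Thinned to 2000 UMIs per nucleus, Gabra5 had 0.49 (adjusted p = 0.384) and Pls3 0.16 (adjusted p = 0.843).

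The calls of Nr4a2 and Col8a1 also rested on part of the libraries. Nr4a2, a nuclear receptor and classical subplate marker, had a log2 fold change of 1.02 (SE 0.24) over 9 libraries, and -0.17 in the 3 GF libraries alone. Without the mouse block its adjusted p was 0.0667. Col8a1, a short-chain collagen, had 1.13 (SE 0.40, adjusted p = 0.031), and -0.25 in the 6 SPF and CGF libraries alone. Without GF mouse 6 or GF mouse 7, the adjusted p of Col8a1 was 0.205 and 0.309. Unc5c, a netrin receptor, did not pass the test (log2 difference -0.19, adjusted p = 0.201). In the 3 GF libraries alone it was lower in layer 6b-type nuclei (-0.39, adjusted p = 0.0468). Trh gave a single UMI and was not tested.

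The promoters of 1 marker and of 1 gene outside the rule are shown as a member of the rule that the table holds and the most abundant layer 6b gene outside it, each as the 250 bases before the annotated start in the RefSeq table of GRCm38.p6, read 5′ to 3′ on the strand of the gene. Cplx3 lies on the minus strand (chr9:57606282-57606531) and Inpp4b on the plus strand (chr8:81342312-81342561).
Cplx3: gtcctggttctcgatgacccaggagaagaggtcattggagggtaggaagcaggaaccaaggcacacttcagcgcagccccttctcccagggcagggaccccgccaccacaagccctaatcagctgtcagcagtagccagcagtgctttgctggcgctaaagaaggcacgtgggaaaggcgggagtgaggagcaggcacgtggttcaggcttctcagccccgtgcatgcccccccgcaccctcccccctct
Inpp4b: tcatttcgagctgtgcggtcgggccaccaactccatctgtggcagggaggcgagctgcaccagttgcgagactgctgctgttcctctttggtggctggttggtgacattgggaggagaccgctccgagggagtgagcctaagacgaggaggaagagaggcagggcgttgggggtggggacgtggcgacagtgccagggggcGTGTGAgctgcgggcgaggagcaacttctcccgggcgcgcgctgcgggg
Capitals mark the T-box core GTGTGA, searched on both strands together with the Sox core AACAAT and an Nr4a2-type site AAAGGTCA. GTGTGA was found in 12.3% of 32851 promoters of this length, AACAAT in 9.42% and AAAGGTCA in 1.34%. The letters searched were not in the window of Cplx3, and 13 of the 28 identity genes and markers looked up were in the table.

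Among genes with no list behind them, olfactory receptor genes had the largest rises. Olfr111 stood at 47.3, 120 and 225 CPM in SPF mice 30, 31 and 32, at 127, 254 and 70.5 CPM in CGF mice 17, 18 and 19, and at 534, 589 and 522 CPM in GF mice 5, 6 and 7. Other glutamatergic nuclei held 0.595 to 2.85 CPM. The log2 fold change was 7.64 (SE 0.19), and Olfr111 UMIs were in 37.9% of layer 6b-type, 0.600% of other glutamatergic and 0.575% of oligodendrocyte-type nuclei.

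Olfr110 rose by 8.62 on the log2 scale (SE 0.34), and 78.7% of its glutamatergic UMIs lay in layer 6b-type nuclei. Both genes are in a run of 10 olfactory receptor genes, Olfr110 to Olfr119, at chr17:37492468-37702124 (GRCm38). This run was looked at after these values had been seen. In it, 9 of 10 genes had a UMI in layer 6b-type nuclei and 2 could be tested. Layer 6b-type nuclei held 77.2% of glutamatergic UMIs of Olfr112, 76.1% of Olfr119, 69.9% of Olfr115 and 60% of Olfr118. These shares are pooled over all 9 libraries, and most of the UMIs came from GF mice: 95 of 95 for Olfr112, 29 of 35 for Olfr119, 108 of 114 for Olfr115 and 64 of 78 for Olfr118. These genes encode odorant receptors of the nasal epithelium and resemble each other in sequence, so the assignment of reads among them is uncertain.

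A second run, on chromosome 8, was made of long intergenic non-coding RNAs (lincRNAs; chr8:49370886-50916997, GRCm38), and it too was looked at after its values were seen. Of 8 genes there, 6 had a UMI in layer 6b-type nuclei, 4 were tested and all 4 were higher, with a median log2 fold change of 4.39. C130073E24Rik was at 185 to 292 CPM in SPF, 221 to 317 CPM in CGF and 412 to 442 CPM in GF mice, against at most 42.7 CPM in other glutamatergic nuclei (log2 fold change 4.44). Gm45323 and Gm45341 had log2 fold changes of 4.34 and 4.67, and Gm45321 had 3.91 and was higher in 8 of 9 libraries. Most UMIs in layer 6b-type nuclei came from GF mice, whose nuclei were also deeper. These were 379 of 577 for C130073E24Rik, 149 of 198 for Gm45323, 73 of 106 for Gm45341 and 123 of 129 for Gm45321. For Gm2516 and 4930555F03Rik, which were not tested, they were 131 of 132 and 196 of 197.

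Other genes with large rises were Ttn, which encodes the giant muscle protein titin (5.06), the lincRNA AC124490.1 (4.22), Galnt10, an enzyme of mucin-type O-glycosylation (4.06), Gdpd2, a glycerophosphodiester phosphodiesterase (3.77), Fbxl7, an F-box protein (3.65), Myocd, the cofactor of serum response factor known from smooth and cardiac muscle (3.51), and Synpo2, an actin-associated protein (3.48). Synpo2 lost its call when nuclei were thinned to 2000 UMIs (2.05, adjusted p = 0.105). AC124490.1 was even across libraries, at 136 to 273 CPM with means of 191 ± 40.8 CPM in layer 6b-type and 10.0 CPM in other glutamatergic nuclei. Ttn was uneven. Of its 557 UMIs, 90.0% came from 17 nuclei with 10 or more UMIs each, and 41 nuclei had any.

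Among the largest falls were Igfn1 (-4.52), Abi3bp (-3.42), Ndst4, a heparan sulfate-modifying enzyme (-3.30), Cpne9, a copine (-3.14), Plch2, a phospholipase C (-3.03), Otof, the calcium sensor otoferlin (-2.97) and Boc, a co-receptor of Sonic hedgehog (-2.91). RF01962 and 4921539H07Rik fell by 3.34 and 3.1 on the log2 scale. Ndst4 lost its call without the mouse block (-3.21, adjusted p = 0.134), and 4921539H07Rik when nuclei were thinned (-1.79, adjusted p = 0.13). Igfn1 was seen as 3 UMIs in all 261 nuclei, against 6.80 to 88.9 CPM in other glutamatergic nuclei. In the 3 GF libraries alone its log2 difference was -1.98 (adjusted p = 0.229), and other glutamatergic nuclei of GF mice held at most 9.34 CPM.

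Genes of upper layers were mostly lower and several deep-layer genes higher, where 5.57% of all genes tested were higher and 11.6% lower with a median of -0.12. Of 7 upper and middle layer genes, 6 were lower and 1 higher (median -1.87). The layer 2 to 4 transcription factor genes Cux2, Cux1 and Rorb had log2 differences of -2.53, -1.12 and -1.87, Rasgrf2 -2.47, Calb1, which encodes calbindin, -1.47, and Otof as above. Cux2 was at 47.3, 8.57 and 33.1 CPM in SPF, 44.2, 25.4 and 8.81 CPM in CGF and 77.3, 36.5 and 38.9 CPM in GF mice. All of these lay below the 170 to 275 CPM of other glutamatergic nuclei.

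Of 6 layer 6 corticothalamic genes, 3 were higher: Tle4, a co-repressor of deep layers (2.29), Ntsr1, the neurotensin receptor that marks corticothalamic neurons (1.44), and Foxp2 (0.41), with 0 lower. Tle4 was at 487, 755 and 490 CPM in SPF, 685, 695 and 511 CPM in CGF and 504, 511 and 498 CPM in GF mice, where other glutamatergic nuclei held 86.2 to 123 CPM. Of 9 deep-layer transcription factors, 5 were higher, among them Zfpm2 (1.49), Nfib (0.99) and Tbr1 (0.79), and 2 lower, Foxp1 (-0.89) and Etv1 (-0.92). Vwc2l was the gene that was higher (2.56) of 3 near-projecting genes tested. Layer 5 extratelencephalic genes gave 0 higher and 2 lower of 4 (Bcl6 -1.43, Npr3 -1.57), and claustrum and Car3-type genes 0 higher and 2 lower of 5 (Synpr -1.66, Ntng2 -1.77). Over all genes tested, 5.57% were higher and 11.6% lower.

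Receptors of neuromodulators moved in both directions. Of 36 tested, 10 were higher and 11 lower, with a median of -0.26, where 5.57% of all genes tested were higher and 11.6% lower with a median of -0.12. Hcrtr2, the orexin receptor known from layer 6b, was at 0, 25.7 and 92.6 CPM in SPF mice 30, 31 and 32, at 11.1, 59.3 and 26.4 CPM in CGF mice 17, 18 and 19, and at 58.9, 52.1 and 43.8 CPM in GF mice 5, 6 and 7, against 2.60 to 10.3 CPM in other glutamatergic nuclei (log2 fold change 2.48, SE 0.27). It was higher in 8 of 9 libraries, and SPF mouse 30 had no UMI in 30 nuclei, which allows up to 3 counts. Drd1, the D1 dopamine receptor, rose by 3.13 (SE 0.28) and was higher in 9 of 9 libraries. With every nucleus thinned to 2000 UMIs it had 1.52 (adjusted p = 0.28).

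The alpha-2A adrenoceptor gene Adra2a had a log2 fold change of 3.1 (SE 0.41) from 25 UMIs and was higher in 6 of 9 libraries. Nicotinic receptor genes Chrna4, Chrna5 and Chrna7 had 1.39, 1.40 and 0.54, the muscarinic gene Chrm2 1.36, the opioid receptor gene Oprm1 1.07 and the adenosine receptor gene Adora1 1.02. Lower were the CRH receptor Crhr1 (-2.36), the serotonin receptors Htr7 (-2.05), Htr2c (-0.68), Htr2a (-0.52) and Htr1f (-0.29), the NPY receptor Npy1r (-2.00), Adrb1 (-1.33), Adra1a (-0.95), Oprd1 (-0.93), Chrm1 (-0.54) and the mineralocorticoid receptor Nr3c2 (-1.10). Against the near-projecting-type nuclei described below, 4 of 13 receptors tested were higher (Chrna7, Chrm3, Htr2a and Oprm1). There 5 were lower (Chrm2, Htr2c, Htr4, Adra1a and Nr3c2), so Chrm2 and Htr2a took the opposite direction. Against corticothalamic-type nuclei 2 of 11 were higher (Chrna7 and Chrm2) and 2 lower (Htr1f and Adra1a). Over all genes, 11% were higher and 11.2% lower in the first contrast, and 10.6% and 10% in the second.

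The families of the markers themselves did not move as groups. Of 6 neurexophilins and neurexins, 2 were higher, Nxph3 among them, and 3 lower (Nxph1 -0.45, Nrxn2 -0.60 and Nrxn3 -0.23). Complexins and SNARE partners gave 0 higher and 2 lower of 9 tested (Cplx2 -0.59, Vamp1 -1.29). In the CCN family with its binding partners and the YAP pathway, Cyr61, the closest relative of Ctgf (1.98), and the integrin Itgb1 (0.51) were higher of 11 tested, and the integrin Itgav (-2.33) and the receptor Lrp1 (-0.45) lower. Neuropeptide precursors gave 0 higher and 2 lower of 8 (Npy -0.82, Cck -0.59), and immediate early genes 0 higher and 2 lower of 10 (Egr3 -1.13, Arc -0.90). Over all genes tested, 11.6% were lower.

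Against 1826 layer 6 corticothalamic-type nuclei, chosen by at least 2 UMIs of Foxp2 and at least 1 of Syt6, 557 of 5262 genes were higher (10.6%) and 526 lower (10%). All 9 layer 6b genes tested were higher, with a median of 2.15 against 0.03 over all genes: Svil 5.56, Tmem163 4.95, Inpp4b 3.95, Lpar1 2.79, Serpini1 2.15, Unc5c 2.08, Nxph3 1.70, Gabra5 0.68 and Pls3 0.51. Pls3 lost its call without GF mouse 5, GF mouse 7 or SPF mouse 30 (adjusted p = 0.211, 0.0957 and 0.0598), and Gabra5 in the 6 SPF and CGF libraries alone (0.53, adjusted p = 0.0544). The largest rises were Olfr111 (6.84), C130073E24Rik (5.63), Svil, Fbxl7 (5.01), Tmem163, the potassium channel subunit gene Kcnab1 (4.47), AC124490.1 (4.31) and Galnt10 (4.08). The largest falls were the cadherin Cdh9 (-2.72), the ephrin receptor Ephb1 (-2.53), Cemip (-2.40), Serinc2 (-2.24), Cpa6 (-2.18), Col5a1 (-2.09), Kctd8 (-1.99) and Tmem196 (-1.95). Of 2 near-projecting genes tested, 2 were higher, Tshz2 (1.94) and Vwc2l (3.63). Of 8 deep-layer transcription factors tested, 4 were lower, Zfpm2 (-0.84), Nfia (-0.86), Foxp1 (-1.02) and Sox5, and 1 was higher, Ldb2. Tle4 did not pass the adjusted threshold (0.22, SE 0.09, adjusted p = 0.0814).

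Against 1050 near-projecting-type nuclei, chosen by at least 3 UMIs of Tshz2, 535 of 4843 genes were higher (11%) and 540 lower (11.2%). Of 9 layer 6b genes tested, 8 were higher, with a median of 1.18 against 0.01 over all genes: Lpar1 3.97, Inpp4b 2.95, Svil 1.86, Gabra5 1.28, Tmem163 1.18, Pls3 1.01, Nxph3 0.88 and Serpini1 0.86. The near-projecting-type nuclei themselves held 115 CPM of Svil, 101 CPM of Tmem163 and 82.5 CPM of Nxph3. Of 2 near-projecting genes tested, Vwc2l and Lypd1, 0 were higher in layer 6b-type nuclei and 2 lower (median -1.47). Unc5c reached 0.39 (adjusted p = 0.0865), and 0.81 (adjusted p = 0.00306) in the 6 SPF and CGF libraries alone. Serpini1 lost its call when nuclei were thinned to 2000 UMIs (0.71, adjusted p = 0.0601), and Nxph3 in the 3 GF libraries alone (0.97, adjusted p = 0.103). The largest rises were Olfr111 (9.59), C130073E24Rik (5.62), Vwc2, a secreted bone morphogenetic protein antagonist (4.67), AC124490.1 (4.54), Lpar1, Galnt10 (3.66), Thsd7b (3.45) and the cadherin Cdh13 (3.22). Among the largest falls were Abi3bp (-5.71), the actin bundler Lcp1 (-5.08), Gm26883 (-3.85), the kainate receptor Grik1 (-3.69), the serotonin receptor Htr4 (-3.66), Nxph1 (-3.61), Plcxd2 (-3.54) and Etv1 (-3.21).

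**Figure D2:**
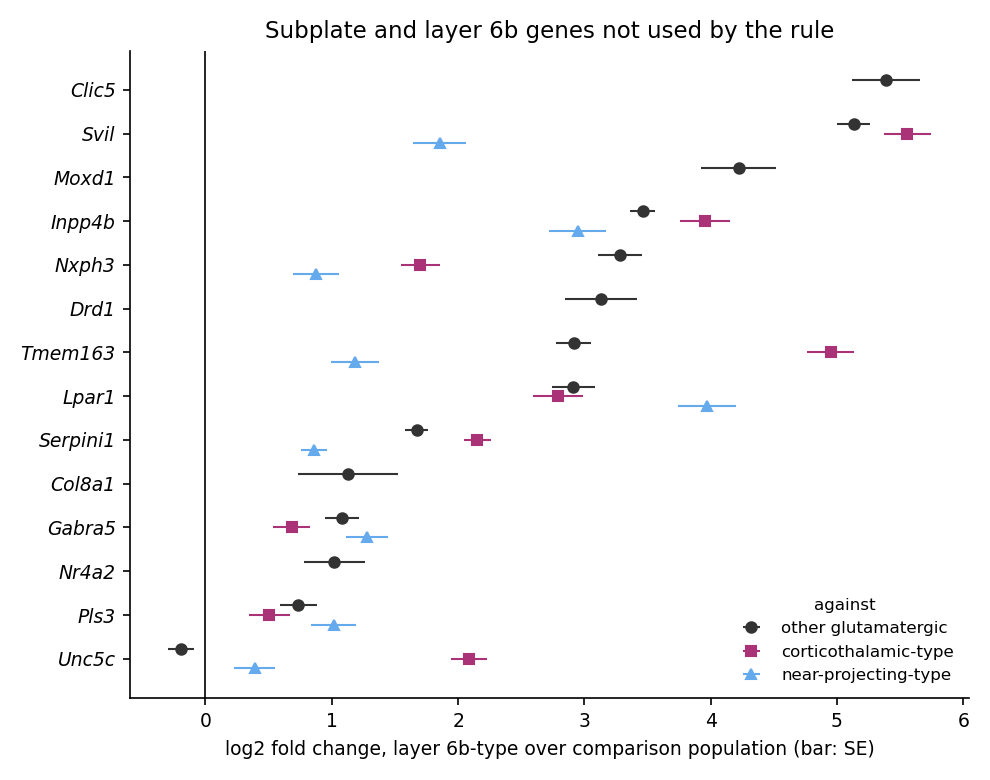
Log2 fold change of layer 6b-type nuclei over other glutamatergic (black circles), corticothalamic-type (purple squares) and near-projecting-type nuclei (blue triangles) for 14 subplate and layer 6b genes outside the rule. Bars are SE derived from the F statistic of edgeR over 9 libraries, and a missing symbol means that the gene was not tested there. All symbols but that of Unc5c against other glutamatergic nuclei lie to the right of 0.

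Markers of other cell types moved in both directions, where 5.57% of all genes tested were higher and 11.6% lower. Of 11 interneuron genes, 0 were higher and 3 lower (Lamp5 -1.92, Reln -1.17, Erbb4 -0.38). Their summed level was 99.0 to 232 CPM in 7 libraries, 453 CPM in SPF mouse 30 and 681 CPM in GF mouse 5, where 1 nucleus with 147 Erbb4 UMIs gave most of it. Of 4 oligodendrocyte genes, 2 were higher, Mobp (0.91) among them, and Mbp was lower (-0.88), with a summed level of 77.3 to 337 CPM in layer 6b-type, 93.9 to 209 CPM in other glutamatergic and 5906 to 9462 CPM in oligodendrocyte-type nuclei. The astrocyte list gave Slc1a2, a glutamate transporter also expressed in neurons, higher (0.80) and Slc1a3 lower (-0.83) of 3. Its summed level was 974 to 1516 CPM in layer 6b-type nuclei, above the 511 to 848 CPM of other glutamatergic and the 620 to 932 CPM of oligodendrocyte-type nuclei. Of 2 genes of oligodendrocyte precursors, Vcan was lower (-1.27). Microglial and endothelial lists gave 0 calls of 3 and of 1, and no fibroblast gene was tested. Fibroblast genes gave 16 UMIs of Slc6a13, 8 of Dcn, 3 of Col1a2 and 0 of Igf2. Their summed level in layer 6b-type nuclei was 0 to 13.5 CPM in SPF, 0 in CGF and 10.4 to 46.2 CPM in GF mice. Other glutamatergic nuclei of GF mice held 5.56 to 8.16 CPM. The part of other cells in any result was not tested.

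The share of layer 6b-type nuclei among glutamatergic nuclei was 0.664 to 0.952% in SPF, 0.633 to 0.925% in CGF and 0.419 to 1.02% in GF mice when all UMIs were used. The means were 0.770 ± 0.158, 0.741 ± 0.160 and 0.717 ± 0.302% (SD, n = 3), and an exact permutation test over the 3 groups gave p = 0.979. Because a deeper nucleus reaches 2 marker UMIs more easily, every nucleus was also thinned to 2000 UMIs before the rule was applied, leaving out shallower ones. This left out 1751 to 2276 nuclei of an SPF library, 2387 to 3119 of a CGF library and 1027 to 1240 of a GF library. Glutamatergic nuclei per library were 3152 to 4219 in SPF, 3460 to 3947 in CGF and 4225 to 4495 in GF mice with all UMIs. After thinning they were 2087 to 2822, 1991 to 2366 and 2072 to 2336. The groups thus kept unlike parts of their nuclei. The shares were then 0.479, 0.390 and 0.474% in SPF mice 30, 31 and 32 (10, 11 and 12 nuclei), 0.301, 0.465 and 0.478% in CGF mice 17, 18 and 19 (6, 11 and 11 nuclei), and 0, 0.0465 and 0.257% in GF mice 5, 6 and 7 (0, 1 and 6 nuclei).

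After thinning, all 3 GF mice lay below all SPF and CGF mice. The exact permutation test over the 3 groups (two-sided) gave p = 0.0214. Leaving out 1 mouse took the exact permutation p above 0.05 in 7 of 9 cases (0.0536 to 0.0679), all but those of GF mouse 6 and GF mouse 7. In pairs, GF minus SPF was -0.347 percentage points (exact permutation p = 0.1, the smallest that 3 against 3 allows, and 0.15 adjusted over the 3 pairs). GF minus CGF was -0.314 (p = 0.1, adjusted 0.15) and CGF minus SPF -0.0329 (p = 0.6, adjusted 0.6), both by the same exact test. The counts are small: the exact 95% binomial intervals were 0.23 to 0.879% in SPF mouse 30 and 0.0943 to 0.558% in GF mouse 7, and 0 to 0.178% in GF mouse 5 with 0 of 2072 nuclei. By the limit of 3 counts, that 0 allows a share of up to 0.145%. These intervals cover counting error only. Thinning to 1000 UMIs gave an exact permutation p = 0.436, and a threshold of 3 marker UMIs an exact permutation p = 0.189. The GF libraries also differ from the others in RNA content, as above, and a lower level of the markers per nucleus cannot be told apart from fewer nuclei.

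**Figure D3:**
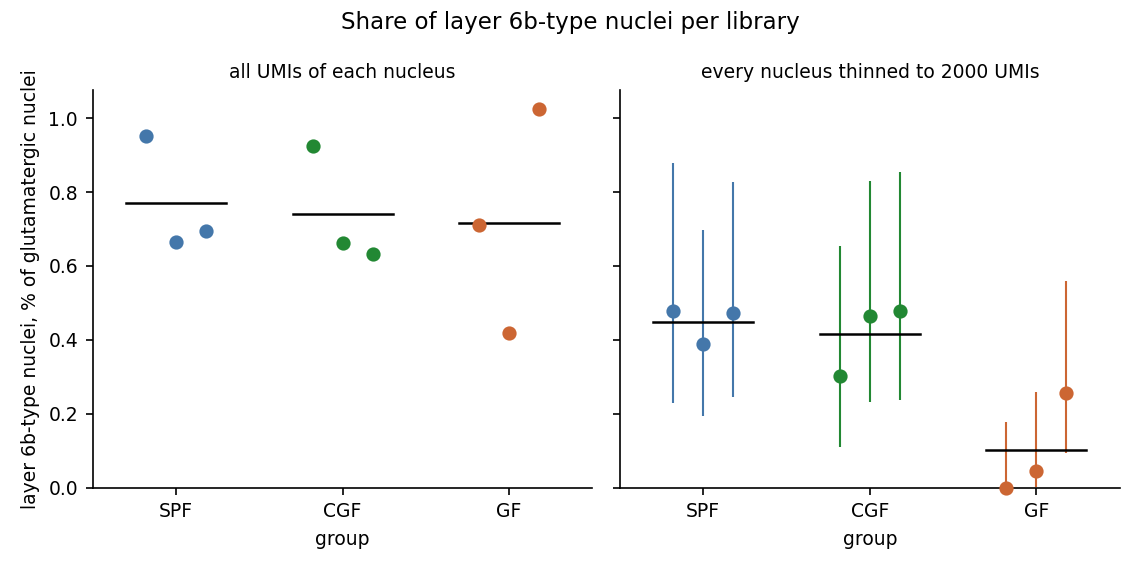
Layer 6b-type nuclei as a percentage of glutamatergic nuclei in each PFC library, with all UMIs (left) and with every nucleus thinned to 2000 UMIs (right). Points are mice, black bars are group means, and vertical bars are exact 95% binomial intervals. With all UMIs the groups overlap, and after thinning the 3 GF points (0, 0.0465 and 0.257%) lie below the other 6.

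Between CGF and SPF mice, layer 6b-type nuclei differed in 3 of 3651 genes tested with edgeR (0.0822%). DESeq2 called 3 as well, and 226 genes had an unadjusted p under 0.05 with edgeR. None of the 3 was a layer 6b gene: 0 of 10 tested passed in either direction (median -0.19 against 0.00237 over all genes). Sim2, a transcription factor of the bHLH-PAS family, had 0 UMIs in all SPF and GF mice and 122, 127 and 132 CPM in CGF mice 17, 18 and 19. It was at least 17.5-fold higher in CGF than in SPF mice (52 UMIs against a floor of 3 counts over the group). Other glutamatergic nuclei of CGF mice held 122, 140 and 235 CPM of Sim2, so the pattern was not confined to layer 6b-type nuclei.

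Mid1, which encodes a microtubule-associated ubiquitin ligase, was at 40.5, 17.1 and 39.7 CPM in SPF, 177, 254 and 212 CPM in CGF and 121, 229 and 204 CPM in GF mice (CGF against SPF, log2 fold change 2.63, adjusted p = 0.00118). The call was lost with at least 3 marker UMIs (2.52, adjusted p = 0.127) and with at least 2 of the 3 marker genes (2.18, adjusted p = 0.612). The SPF and CGF values did not overlap, and other glutamatergic nuclei showed 39.1 to 72.9 and 158 to 292 CPM. The unnamed gene AC149090.1 fell by 1.96 on the log2 scale in CGF mice (adjusted p = 0.0291), from 460, 883 and 245 CPM to 149, 119 and 123 CPM. Its call was lost without CGF mouse 17, 18 or 19 or SPF mouse 31 (adjusted p = 0.151, 0.0662, 0.0824 and 0.289), with log2 differences of -2.07, -1.91, -1.91 and -1.39.

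GF mice differed from SPF mice in 996 genes (27.3%) and from CGF mice in 945 (25.9%), but these contrasts carry the library difference. Gm42418, which overlaps ribosomal RNA, stood at 9697 to 13918 CPM in SPF, 12005 to 19259 CPM in CGF and 120 to 190 CPM in GF mice, and Malat1 at 26379 to 27181, 20589 to 24790 and 42545 to 48712 CPM. Of 7 transcripts listed because they had moved with the library in earlier results of these data, 6 were lower in GF than in SPF layer 6b-type nuclei and Malat1 was higher. In the interaction test between populations 0 of the 7 passed for GF against SPF, where 0.0453% of all 15466 genes tested did. With so few calls, this 0 cannot show that the shift was equal in both populations. Genes higher in GF than in SPF mice overlapped a gene on the opposite strand in 69.0% of cases and genes lower in GF mice in 43.5%, against 56.0% of all genes tested. Their median lengths were 107590 and 26772 bases against 74797. Whether strand or intronic reads entered the counts is not given in the sources used here.

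Of 10 layer 6b genes tested, 4 were higher in GF than in SPF mice (Svil, Inpp4b, Pls3 and Serpini1) and 1 was lower, with a median of 0.38 against -0.00359 over all genes. Over all 3651 genes tested, 464 were higher and 532 lower. Against CGF mice, Svil, Pls3, Unc5c and Serpini1 were higher and Nxph3 again lower of 10 tested. Over all 3651 genes, 450 were higher and 495 lower in that contrast. Nxph3 was at 209.5, 189 and 132 CPM in SPF, 215, 212 and 203 CPM in CGF and 33.1, 46.9 and 34 CPM in GF mice. The GF mice lay below all others, with a log2 fold change of -2.08 against SPF (adjusted p = 1.45e-05). The fall was shared by other glutamatergic nuclei, which held 19.3 to 21.4 CPM in SPF and 2.47 to 5.79 CPM in GF mice, and its difference between the populations was 0.09 (SE 0.41, adjusted p = 1).

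The 5 largest rises in GF over SPF mice began with 4930555F03Rik (at least 31-fold) and P2ry14, a receptor of UDP sugars (at least 29.1-fold). Gm19710 (16.8-fold or more), Gm11417 and Olfr112 (both 15.0-fold or more) followed. Each had 0 UMIs in SPF mice and was set against a floor of 3 counts over the group. Olfr112 was at 110, 93.8 and 114 CPM in the GF mice and at 0 in all 6 others. The 5 largest falls were Gm19951 (at least 41.4-fold higher in SPF), Gm48099 (at least 35.1-fold), Il31ra (at least 29.5-fold), Gm42418 and Cmss1, with log2 differences of -5.97 and -5.00 for the last pair. P2ry14 moved alike in other glutamatergic nuclei, at 156 CPM in GF and 4.83 CPM in SPF mice, as did Gm19951 (1.33 against 148 CPM). 4930555F03Rik lies in the lincRNA run of chromosome 8. Its UMIs numbered 196 in GF, 1 in CGF and 0 in SPF layer 6b-type nuclei, with 6.96 CPM in other glutamatergic nuclei of GF mice and 0.323 CPM in those of SPF mice.

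**Figure D4:**
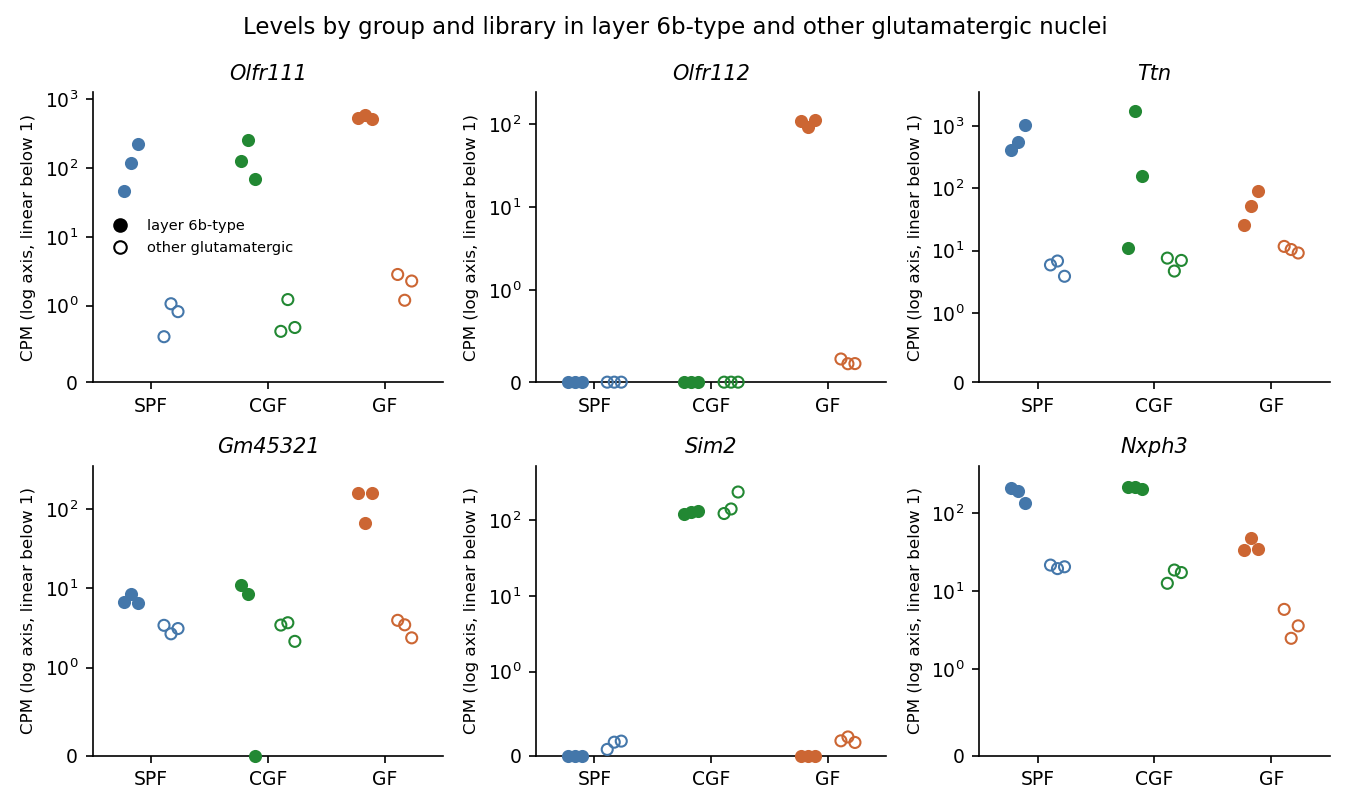
CPM of 6 genes by group in layer 6b-type nuclei (filled) and other glutamatergic nuclei (open), 1 point per library, on an axis that is logarithmic above 1 and linear below. Sim2 and Nxph3 shift in both populations, Olfr112 is above 1 CPM in GF layer 6b-type nuclei alone, and Ttn spreads from 11.1 to 1712 CPM within CGF mice.

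A change that a library gives to all glutamatergic nuclei cancels in the difference between the populations, which was tested as an interaction over 15466 genes with the mouse as a block. In CGF against SPF 4 genes passed (0.0259%), in GF against SPF 7 (0.0453%) and in GF against CGF 26 (0.168%). Calls depended on the model. DESeq2 gave 0, 0 and 2 (310, 374 and 436 at an unadjusted p under 0.05), and edgeR without the replicate block gave 0, 0 and 2 (684, 701 and 840).

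Gm45321, a lincRNA of the chromosome 8 run, had the largest positive interaction. It was at 6.76, 8.57 and 6.62 CPM in SPF, 11.1, 8.47 and 0 CPM in CGF and 162, 67.8 and 160 CPM in GF mice, with no overlap between GF mice and the others. Over each group these were 3, 3 and 123 UMIs, so the SPF and CGF levels were at the floor of 3 counts. Other glutamatergic nuclei held 2.15 to 3.96 CPM in every library. The difference was 4.11 against SPF (adjusted p = 4.26e-04, 0.078 without the replicate block, 0.899 with DESeq2) and 4.12 against CGF (adjusted p = 1.09e-04, 0.0369 without the block, 0.213 with DESeq2). Without SPF mouse 30 the first had an adjusted p of 0.0532. Thinning to 2000 UMIs left 0, 1 and 6 layer 6b-type nuclei in GF mice 5, 6 and 7. With every nucleus thinned to 2000 UMIs the differences were 1.91 and 8.78 (adjusted p = 1 for both).

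Ttn had the largest negative interaction. It was at 405, 549 and 1039 CPM in SPF mice 30, 31 and 32, at 11.1, 1712 and 159 CPM in CGF mice 17, 18 and 19 and at 25.8, 52.1 and 89.9 CPM in GF mice 5, 6 and 7. The GF values lay below all SPF values, while the CGF mice spanned both. GF against SPF gave -4.40 (adjusted p = 2.13e-38 in edgeR, 0.215 without the block, 1 in DESeq2). Nuclei with 10 or more Ttn UMIs numbered 2, 3 and 4 in the SPF, 0, 6 and 1 in the CGF and 0, 0 and 1 in the GF mice, and 1 nucleus of SPF mouse 32 held 96 UMIs, without which that library had 425 CPM. GF against CGF gave -3.39, and -0.76 (adjusted p = 1) without CGF mouse 18.

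Some layer 6b genes passed the interaction test: 1 of 14 in the contrast of GF with SPF, 3 of 14 in that of GF with CGF and 0 of 14 in that of CGF with SPF. Over all 15466 genes tested, 0.0453%, 0.168% and 0.0259% passed in these contrasts. For Inpp4b, GF minus SPF was 0.92 larger in layer 6b-type nuclei (edgeR adjusted p = 0.00294, and 0.946 without the mouse block). The call was lost without SPF mouse 30 (0.47, adjusted p = 1), SPF mouse 32, GF mouse 5 or GF mouse 6 (adjusted p = 0.0825, 0.0536 and 0.0537). GF minus CGF was 1.01 larger for Inpp4b (adjusted p = 1.09e-04, and 0.791 without the block), and without CGF mouse 17 it was 0.55 (adjusted p = 0.886). With every nucleus thinned to 2000 UMIs it was 0.000965 (adjusted p = 1), and the difference for GF against SPF was 0.74 (adjusted p = 1).

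For Svil, GF minus CGF was 1.34 larger in layer 6b-type nuclei (adjusted p = 2.30e-04, and 0.494 without the block). It was 0.99 (adjusted p = 0.205) without CGF mouse 17, the mouse with the lowest Svil, and -0.63 (adjusted p = 1) with every nucleus thinned to 2000 UMIs. Moxd1 had 2.87 for GF against CGF (adjusted p = 0.0183), from 0, 50.8 and 8.81 CPM in CGF mice 17, 18 and 19 and 95.7, 46.9 and 36.5 CPM in GF mice. Its call was lost without CGF mouse 17, CGF mouse 19 or GF mouse 5 (adjusted p = 0.88, 0.386 and 0.392), and without the block (adjusted p = 0.494). DESeq2 gave an adjusted p of 1 to the interactions of Inpp4b, Svil and Moxd1 in these contrasts.

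Of the 4 genes in CGF against SPF, Fbxl7 had a difference of -1.70 (adjusted p = 1.09e-07, 0.441 without the block, 0.852 in DESeq2). Its level in layer 6b-type nuclei was 203, 557 and 298 CPM in SPF and 249, 415 and 185 CPM in CGF mice, which overlap. In other glutamatergic nuclei it was 16.8 to 22.6 CPM in SPF and 43.1 to 59.8 CPM in CGF mice, which do not. Without SPF mouse 31 the difference was -1.15 (adjusted p = 0.168). For Spag16, 1 nucleus of SPF mouse 32 gave 52.4% of 82 UMIs, and without that mouse the interaction of -3.08 became -1.06 (adjusted p = 1). Erbb4 was at 318, 85.7 and 92.6 CPM in SPF and 77.3, 67.8 and 35.3 CPM in CGF mice, and without SPF mouse 30 its interaction of -1.54 became -0.54 (adjusted p = 1). Col11a1, a fibrillar collagen, was at 358, 154 and 72.8 CPM in SPF, 33.1, 67.8 and 52.9 CPM in CGF and 51.5, 36.5 and 48.6 CPM in GF mice, and without SPF mouse 30 its interaction of -2.09 became -1.42 (adjusted p = 0.923).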

How the data were processed

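Nuclei of frozen PFC from 9 mice (3 GF, 3 SPF, 3 CGF) were captured with a Chromium 3′ kit, 1 library per mouse. The authors deposited raw UMI counts per gene and barcode, made with Cell Ranger (version 3.1.0 in the file headers) on mm10. The kit version is given differently in the labels, and whether intronic reads were counted is not given in the sources used here.

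Nuclei were selected by the rule, UMIs were summed per mouse and population, and the sums were tested with edgeR 4.0.16 in R 4.3.3 (TMM, filterByExpr, quasi-likelihood test, Benjamini-Hochberg adjustment, called under 0.05). Identity and interaction fits had the mouse as a block, since both populations came from the same mice. The SE of a log2 fold change was its absolute value divided by the square root of the F statistic. It is not an SD over mice. Comparisons of groups used all 3 groups in 1 fit. CPM are the UMIs of a gene scaled to the total UMIs of the population in a library, and means are over libraries. Shares were compared with exact permutation tests (scipy 1.17.1). DESeq2 1.42.0 was an alternative. No doublet caller was run, and an alternative left out nuclei above the 95th percentile of UMIs of their library. Gene positions came from GENCODE release M21, which matched 30766 of 30905 genes (99.6%).

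The members and the gene lists were chosen with earlier results of these data known. Genes outside the lists were named by size of change: the 15 largest rises and 10 largest falls against other glutamatergic nuclei, and 8 and 8 against each deep-layer type, with the same direction in 9 of 9 libraries and at least 20 CPM in the higher population. For groups it was the 5 largest rises and falls whose groups did not overlap, and for interactions the 5 largest differences. A few genes that these rules or lists take in are not reported here. On simulated sums with 200 changed genes, 58% of 2-fold and 77% of 4-fold changes were recovered against other glutamatergic nuclei (13240 genes, 14 false calls), and 10% and 34% in the interaction of GF against SPF (15466 genes, 2 false calls). Each mouse is a separate animal. Differences between kit lots or dates were not analysed here.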

Additional observations from a re-analysis of the deposited data

Results flagged for a closer look

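For the genes below, the group difference was not the same in layer 6b-type nuclei as in the other glutamatergic nuclei of the same mice. The interaction test of edgeR gave these calls, which do not show in which population the groups differed. All values are log2 differences. For CGF against SPF the genes were Spag16 (-3.08), Col11a1 (-2.09), Fbxl7 (-1.70) and Erbb4 (-1.54). None of these passed between CGF and SPF mice in layer 6b-type nuclei alone, where Sim2, Mid1 and AC149090.1 did. For GF against SPF the genes included Ttn (-4.40), Gm45321 (4.11), Mir670hg (-2.04) and Pdgfc (-1.86). For GF against CGF the 5 largest were Gm45321 (4.12), Ttn (-3.39), Col23a1 (-3.19), Nnat (-2.88) and Moxd1 (2.87). DESeq2 gave each of the genes named for CGF against SPF and for GF against SPF an adjusted p of at least 0.852.

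Pdgfc, a platelet-derived growth factor, was at 122, 112 and 66.2 CPM in SPF and 55.2, 46.9 and 36.5 CPM in GF mice, with a lost call without GF mouse 7 or SPF mouse 30 (adjusted p = 0.247 and 0.359). Mir670hg was at 33.8, 25.7 and 132 CPM in SPF and 25.8, 62.5 and 14.6 CPM in GF mice, and -1.03 (adjusted p = 1) remained without SPF mouse 32.

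Nnat, which encodes the imprinted membrane protein neuronatin, was at 425, 25.4 and 282 CPM in CGF mice 17, 18 and 19 and 69.9, 52.1 and 60.8 CPM in GF mice 5, 6 and 7, so the groups overlapped. Its adjusted p was 2.01e-16 with edgeR, 0.293 without the mouse block and 0.428 with DESeq2. Col23a1, a transmembrane collagen, was at 49.7, 76.3 and 44.1 CPM in CGF and 11, 5.21 and 0 CPM in GF mice. It lost its call in edgeR without CGF mouse 17, CGF mouse 18 or GF mouse 7 (adjusted p = 0.0764, 0.218 and 0.804). The log2 differences were then -3.33, -2.845 and -2.10. Spag16 went from -3.08 to -1.06 (adjusted p = 1) without SPF mouse 32 and Erbb4 from -1.54 to -0.54 (adjusted p = 1) without SPF mouse 30.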

How the results depend on the processing

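Membership, depth and model all moved counts. Against other glutamatergic nuclei, 1476 genes passed with every nucleus thinned to 2000 UMIs (6.64% of them higher, against 32.5% without thinning) and 1458 in GF libraries alone. Thinning left 113 calls of 347 genes tested against corticothalamic-type and 284 of 1170 against near-projecting-type nuclei. Without thinning these were 1083 of 5262 and 1075 of 4843. In CGF against SPF, 7 genes passed with no filter on low counts, 1 with at least 3 marker UMIs, 0 with at least 2 of the 3 marker genes (edgeR, 83 at an unadjusted p under 0.05) and 0 after thinning (13). GF against SPF gave 640 calls with DESeq2, 598 with 3 marker UMIs, 438 with 2 marker genes and 13 after thinning, and GF against CGF gave 586, 587, 423 and 18. Thinning left GF mouse 5 with 0 layer 6b-type nuclei and 500 genes tested between groups.

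Interactions gave 0 calls with DESeq2, 1 with 2 marker genes, 0 after thinning (202 at an unadjusted p under 0.05) and 0 without the replicate block for CGF against SPF. They gave 0, 4, 0 (192) and 0 for GF against SPF, with 4 when nuclei of very high UMIs were left out, and 2, 6, 0 (182) and 2 for GF against CGF. Without the replicate block 2169, 1030 and 1042 genes passed in the 3 identity tests. Between groups no paired analysis was possible because the groups share no mouse numbers. The cause of these moves was not tested.

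Leaving out each mouse gave 2084 to 2217 calls against other glutamatergic, 924 to 1054 against corticothalamic-type and 915 to 1053 against near-projecting-type nuclei. It gave 2 to 5 for CGF against SPF (5 without CGF mouse 18, 2 without CGF 17, CGF 19 or SPF 31), 742 to 1144 for GF against SPF and 702 to 1037 for GF against CGF. For interactions it gave 1 to 11 for CGF against SPF (11 without CGF 18, 1 without CGF 19), 3 to 13 for GF against SPF (3 without SPF 30, 13 without SPF 31, 4 without GF 5, 11 without GF 7) and 13 to 32 for GF against CGF (13 without CGF 19, 15 without CGF 17, 17 without GF 5).

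The thinned share of layer 6b-type nuclei, GF minus SPF, was -0.0528 percentage points with no thinning (exact permutation p = 0.979 over the groups), -0.112 at 1000 UMIs (p = 0.436), -0.149 with 3 marker UMIs (p = 0.189) and -0.194 with 2 marker genes (p = 0.0857), by the same exact test. Leaving out each mouse gave -0.424 to -0.296 (exact p = 0.0214 to 0.0679), and thinning to 3000 UMIs kept its side of 0.05 (exact p = 0.0357).

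Of single genes, these turned direction in an interaction: Spag16 with 2 marker genes (1.03), Erbb4 with 3 marker UMIs (0.38) or thinned (1.2), and, thinned, Col23a1 (0.25), Moxd1 (-8.33) and Svil (-0.63). Thinning left 0, 1 and 6 layer 6b-type nuclei in GF mice 5, 6 and 7, so the thinned values of GF contrasts rest on few UMIs and cannot show a reversal. In identity, Nr4a2 turned in GF libraries alone (-0.17), Col8a1 in SPF and CGF libraries alone (-0.25) and Unc5c against near-projecting-type nuclei in GF libraries alone (-0.052). With 18 to 46 nuclei a library, genes of a few UMIs limit every comparison of groups.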
